A study of Mus musculus with 6 samples.

Results

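Cytosolic ribosomal proteins were examined as 1 gene module in mouse B-cell acute lymphoblastic leukaemia cells under fasting. Members were all rows whose gene name begins with Rpl or Rps, an optional p and digits, with at most 1 further letter and digit, plus Rpsa, and names with a longer suffix (such as the kinase gene Rps6kb1 or a copy marked -ps) were left out. The rule took 88 of the 37732 genes that could be joined across the files, 51 of the large (60S) and 37 of the small (40S) subunit. Of these, 85 passed a filter on low counts that 14236 genes passed in all. Rpl10l, Rpl39l and Rpl3l did not pass it. The filter, levels and folds refer to total gene reads unless said otherwise.

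The study sequenced RNA of leukaemia cells from bone marrow of mice that were fed, fasted for 1 day or fasted for 2 days. All 3 groups shared the same leukaemia model: C57BL/6 mice transplanted with lineage-negative fetal liver cells that express N-Myc with a GFP reporter, with cells sorted as GFP+B220+. Fasting began at a middle stage of the disease. Each group had 2 libraries, titled replicates and called run 1 and run 2 here. The series' design text speaks of 3 samples sequenced with duplication, the number of mice behind a library is not given in the labels, and each group was therefore treated as 1 sample with 2 runs. P-values are therefore absent, and the spread among animals is unknown.

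Ribosomes hold 1 copy of nearly every ribosomal protein, and a cell makes these proteins in near-equal amounts from mRNAs that are among the most abundant it has. Most of these mRNAs begin with a run of pyrimidines (the terminal oligopyrimidine, or TOP, motif) through which the nutrient-sensing kinase complex mTORC1 controls their translation, so that starvation is best known for holding back their translation rather than their level. MYC-family factors are known activators of ribosomal protein genes. The genes also have many processed copies in the genome, so that a short read often maps to more than 1 place.

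Promoters of 63 members could be matched to RefSeq sequences (build GRCm38.p6, which is the mm10 assembly). Within 50 bases either side of the annotated start, the longest run of C and T on the sense strand had a median of 10 bases in members and 7 bases in all 27025 genes with a sequence. A run of 8 or more was present in 52 members (82.5%), against 39.3% of all genes. The windows of 7 members are printed from 60 bases before to 20 bases after the start, 5′ to 3′ on the sense strand, with their longest run of C and T in capitals. Rps18, Rpl35 and Rps6 are shown for a long run at the start, Rplp0 as the member with the most reads, Rpl10 for its opposite differences at 1 and 2 days, and Rpl22l1 beside Rpl22 as the paralog pair that differed in direction.
Rps18, chr17:33955646-33955725, minus strand: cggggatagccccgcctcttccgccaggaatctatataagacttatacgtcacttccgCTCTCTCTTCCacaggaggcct
Rpl35, chr2:39005112-39005191, minus strand: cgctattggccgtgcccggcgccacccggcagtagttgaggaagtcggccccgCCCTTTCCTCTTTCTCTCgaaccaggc
Rps6, chr4:86857348-86857427, minus strand: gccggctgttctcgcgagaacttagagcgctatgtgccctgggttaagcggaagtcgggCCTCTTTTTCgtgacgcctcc
Rplp0, chr5:115559407-115559486, plus strand: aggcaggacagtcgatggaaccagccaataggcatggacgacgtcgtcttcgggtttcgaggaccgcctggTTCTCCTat
Rpl10, chrX:74270756-74270835, plus strand: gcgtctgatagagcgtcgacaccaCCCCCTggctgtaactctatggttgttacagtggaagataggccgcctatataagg
Rpl22, chr4:152325666-152325745, plus strand: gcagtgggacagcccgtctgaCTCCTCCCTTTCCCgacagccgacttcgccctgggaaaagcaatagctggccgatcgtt
Rpl22l1, chr3:28805448-28805527, plus strand: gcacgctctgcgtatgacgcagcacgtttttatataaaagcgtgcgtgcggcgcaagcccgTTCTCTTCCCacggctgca

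In these windows the run spans or adjoins the annotated start in Rps18, Rpl35, Rps6 and Rpl22l1, and begins at position -36 in Rpl10 and -39 in Rpl22, with 0 at the start. Rpl22 has another annotated start, not printed, where the longest run in the same window is 5 bases, beginning at -47. A set of 6 motifs was searched in the whole 300-base promoter windows. The pyrimidine string CTCTTTCC, on the sense strand, was in 12.7% of members and 1.76% of all genes, and CTTTTC was in 20.6% of members and 12.9% of all genes. The ETS-factor core CCGGAAG, on either strand, was in 41.3% of members and 9.93% of all genes. The GC box GGGCGG, on either strand, was in 61.9% and 38.2%. The E-box CACGTG, which Myc and Max bind, was in 9.52% of members and 8.09% of all genes on either strand, and the TATA string TATAAA in 9.52% and 9.77% on the sense strand. None of these strings contains another. A match describes the letters in the window and is not a measured binding site.

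Library depth ran from 19368326 to 45862844 total gene reads. Between the runs of a group, the members differed by a median of 0.018 to 0.024 on the log2 scale, less than most differences between groups described here. The sorted cells carried 9 analysed markers of the B-lineage leukaemia (Cd79a, Pax5, Mycn and others) at a summed 4904.3 to 5169.3 CPM (counts scaled to library size) in all 6 libraries. Of this sum Mycn, the gene that the leukaemia model expresses, held 2088.5 to 2280.2 CPM. The steady sum hides single markers. After 2 days 3 of the 9 were past 1.5-fold lower than control, against 10.1% of all genes: Igll1 (log2 fold -5.7), Vpreb1 (-5.39) and Blnk (-0.6). None was past 1.5-fold higher, and Cd79b was past 1.2-fold higher (0.42). Transcripts of other blood cells were present too. The 10 neutrophil markers summed to 985.9 and 1002.9 CPM in control, 632.5 and 661.3 CPM at 1 day and 847.9 and 864.5 CPM at 2 days. The 10 erythroid markers summed to 438.2 and 447.9 CPM, 559.4 and 571.9 CPM, and 996.5 and 993.7 CPM in the same order of groups. The 7 monocyte and macrophage markers summed to 99.5 and 98.5, 90.1 and 90.2, and 155.4 and 148.0 CPM, and the 9 T and NK cell markers to 3.69 and 3.63, 5.92 and 5.17, and 2.27 and 2.42 CPM. No marker of any list was at 0 reads, and the part of these cells in the ribosomal protein values was not tested. In bulk RNA, fewer cells of a type and less RNA per cell cannot be told apart.

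Per length, the kept members ranged from 0.234 to 3215.3 in the authors' RPKM (reads scaled to exon length and library size). The highest were Rplp1, an acidic protein of the stalk that recruits elongation factors, at a mean of 3215.3 RPKM over the 6 libraries, Rpl32 at 2488.4, Rplp0, the stalk base, at 2189.6, Rpl4 at 2165.9 and Rps3a1 at 2130.2. The median member stood at 529.3 RPKM. The lowest kept members were Rps4y2 at 0.234, Rps3a3 at 0.256, Rpl13 at 0.345, Rps12l1 at 0.946 and Rps3a2 at 1.12 RPKM. These 5, and Rps12l2 at 2.64 RPKM, are low in read number as well, and each had fewer than 100 reads in every library. The position of Rpl13 lies within another row on the same strand (Gm20388), so its count may not show its level.

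The module took a larger share of the reads in fasted cells. Shares are of the reads in the 37732 joined genes. Of total gene reads there, members held 7.491% and 7.479% in the control runs, 8.205% and 8.167% after 1 day and 8.300% and 8.269% after 2 days. The widest exact binomial 95% interval, that of the second 2-day run, was 8.256% to 8.282%, and the intervals cover counting error only, since reads are PCR copies without molecular identifiers. Both runs of both fasted groups lay above both control runs, and the 2-day runs lay above the 1-day runs by less than the distance to control. Joined genes held 99.95% to 99.96% of all listed gene reads in the run 1 libraries. In run 2 they held 96.71% in control, 97.32% at 1 day and 95.45% at 2 days. Over all listed genes the fasted runs stay above control, but the second 2-day run falls below the second 1-day run. The order of 2 days and 1 day therefore depends on the genes counted. The share was 1.09 times the control share after 1 day and 1.11 times after 2 days. Both subunits took part: the 60S members held 4.23%, 4.63% and 4.64% in control, 1-day and 2-day cells, and the 40S members 3.25%, 3.56% and 3.64%.

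**Figure D1:**
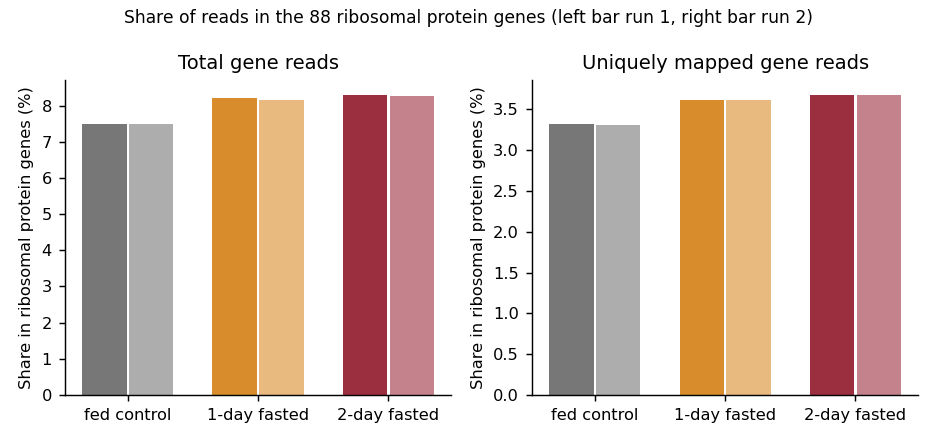
Share of total gene reads (left panel) and of uniquely mapped gene reads (right panel), in percent of the reads in joined genes, that fall in the 88 ribosomal protein genes, with 1 bar per library and bars starting at 0. On both measures the 4 fasted libraries stand above the 2 control libraries, at 8.167% to 8.300% against 7.479% to 7.491% of total reads.

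Gene by gene, the difference was small and spread over most members. After 1 day the median log2 fold against control was 0.113 over the 85 kept members (0.127 on run 1 and 0.124 on run 2), and 77 of 85 had a positive fold. Over all 14236 genes the median was 0.002, and over the 2445 genes at 100 CPM or more, the level of most members, it was -0.03. Both 1-day runs were above both control runs in 71 of 85 members, or 83.5%, where 34.9% of all genes did the same. Both were below in 5 members, Rpl22l1, Rpl7l1, Rps27l, Rps2 and Rps12l2, or 5.88%, against 33.6% of all genes. Among genes at 100 CPM or more these shares were 34.2% and 51.5%. The difference was below 1.2-fold in nearly all of them: only Rps27 and Rpl10 were past 1.2-fold higher in the mean and in each run, and none was past 1.2-fold lower. Those are 2.35% and 0% of members, against a background of 11.8% higher and 9.5% lower among all genes, or 4.83% and 4.83% among those at 100 CPM or more. No member was past 1.5-fold, against 4.29% higher and 2.79% lower among all genes (1.19% and 0.368% at 100 CPM or more). With a run left out, the run that remained was set against both runs of the other group. Such pairs mix run 1 and run 2, whose gene regions differ for some members. The shares of all genes were not counted for this. Both directions then appeared past 1.2-fold. Without control run 1, 5 members were higher and 0 lower, and without control run 2, 3 were higher and 3 lower. Without 1-day run 1, 4 were higher and 1 lower, and without 1-day run 2, 3 were higher and 1 lower. Past 1.5-fold, 2 were higher without control run 1 and 2 lower without control run 2. Leaving out either 1-day run put 1 member past 1.5-fold lower and 0 higher.

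After 2 days the median log2 fold against control was 0.128 (0.125 and 0.103 in the runs), with 69 of 85 members positive and a median of 0.01 over all genes. Both 2-day runs were above both control runs in 59 members, 69.4% against a background of 39.3%, and below in 11 members, 12.9% against 38.4%. At 100 CPM or more the background was 35.6% above and 55.0% below. Past 1.2-fold there were 8 members higher (Rpl21, Rplp0, Rps12, Rps19, Rps27 and the low-count Rpl13, Rps12l2 and Rps3a2) and 3 lower (Rpl10, Rpl22l1 and the low-count Rps4y2), against 20.7% and 20.0% of all genes, or 9.28% and 18.9% at 100 CPM or more. The higher members are 9.41% of the module and the lower 3.53%, both below the share of all genes. Rps4y2 alone was past 1.5-fold, lower, where 10.1% of all genes were, and 0 members were higher past it (9.52% of all genes). With no reads after 2 days, Rps4y2 passed the filter through the other groups alone, so its lower calls at 2 days are no support for a difference. At 100 CPM or more 2.54% were higher and 4.42% lower. Without control run 1 there were 5 members past 1.5-fold (4 higher and 1 lower), and 2 (1 higher and 1 lower) without any other single run of these groups. The shares of all genes were not counted with a run left out. Both fasted groups were set against the same control runs, so their folds are not independent of each other.

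Between 2 days and 1 day the module as a whole hardly differed. The median log2 fold was 0.003 (0.012 and -0.013 in the runs), 43 of 85 members were positive, and 33 members were above and 33 below without overlap, each 38.8%, against 36.6% and 37.8% of all genes (35.8% and 50.1% at 100 CPM or more). Past 1.2-fold, 3 members were higher and 4 lower, against 14.8% and 16.7% of all genes (5.36% and 10.8%). Of these, 5 were past 1.5-fold, against 5.63% higher and 8.59% lower among all genes (0.941% and 2.74% at 100 CPM or more): Rpl10 lower, and the low-count Rpl13, Rps12l2 and Rps3a2 higher and Rps4y2 lower.

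**Figure D2:**
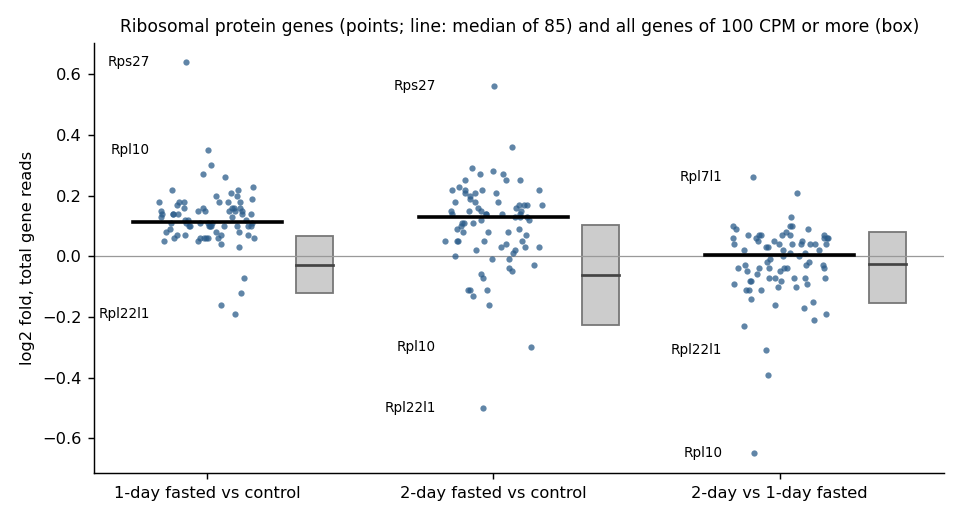
Log2 fold on total gene reads for each ribosomal protein gene with at least 100 reads in every library (79 points) in the 3 comparisons, with a line at the median of all 85 kept members and a box spanning the quartiles, with its median, of the 2445 genes at 100 CPM or more. The points of both fasted groups against control lie mostly above 0, with medians of 0.113 and 0.128, while those of 2 days against 1 day are centred at 0.003.

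Most of these reads do not map to 1 place only. In the members 34.0% to 34.5% of total gene reads were unique, against 77.2% to 77.8% over all genes. Just 6 kept members had at least 90% unique reads, among them Rpl4, Rpl8, Rpl23, Rps3 and Rps9. A further 45 had 10% to 90%, and 34 had under 10%, among them Rps6 with 0.55%, Rps16 with 0.872%, Rps29 with 1.17%, Rps23 with 1.2% and Rpsa with 2.21%. A total value of such a member can hold reads of its processed copies, and the strand setting of the counting is not given in the sources used here. The 220 joined rows marked as -ps copies together held 0.0584% of total gene reads in control, 0.0573% at 1 day and 0.0673% at 2 days. The higher 2-day value rests on run 2: control, 1-day and 2-day cells had 0.0562%, 0.0553% and 0.0567% in run 1, and 0.0605%, 0.0594% and 0.0779% in run 2. Copies listed in the run 2 table only, such as Rps13-ps1 (11870 reads in control), and copies without -ps in the name are outside this sum.

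The 6 members with nearly all reads unique gave the same picture. Rps3, a 40S protein at the mRNA entry site, had 2005.2 and 1995.2 CPM after 1 day, 2138.6 and 2127.3 CPM after 2 days, and 1823.3 and 1815.1 CPM in control. Its runs did not overlap between any groups, at log2 folds of 0.14 and 0.23 against control. Rpl8, a 60S protein near the peptidyl transferase centre, had 1735.5 and 1772.0 CPM after 1 day, 1861.7 and 1857.0 CPM after 2 days, and 1644.7 and 1666.1 CPM in control, again with no overlap. Rps9 stood at a fold of 0.10 after 1 day and 0.08 after 2 days. Rpl4 was the least different of the 6, at 0.07 after 1 day and 0.01 after 2 days. Over the 6, the median was 0.11 and 0.10 against control, and -0.01 between 2 days and 1 day.

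On unique gene reads alone, which 79 members had in sufficient number for the same filter, the module held 3.321% and 3.313% of the reads in joined genes in control, 3.616% and 3.610% after 1 day and 3.679% and 3.676% after 2 days. Over all listed genes the second 2-day run was not above the second 1-day run on unique reads either. The median log2 folds were 0.117 after 1 day, 0.086 after 2 days and -0.047 between 2 days and 1 day. Both runs were above both control runs in 66 of 79 members after 1 day (83.5%, background 35.8%) and below in 3 (background 35.8%). After 2 days they were above in 47 (59.5%, background 41.2%) and below in 15 (background 40.2%), and between 2 days and 1 day above in 25 and below in 42 (background 38.4% and 38.8%). Past 1.2-fold, 12 members were higher and 0 lower after 1 day (background 11.8% and 9.08%), 5 higher and 3 lower after 2 days (21.5% and 20.6%), and 1 higher and 14 lower between 2 days and 1 day (15.0% and 16.9%). Past 1.5-fold, 0 members were higher or lower after 1 day (4.27% and 2.58%) or 2 days (9.69% and 10.3%), and 0 higher and 2 lower between 2 days and 1 day (5.39% and 8.46%). Of the 78 members with at least 100 unique reads in every library, the total and the unique fold had the same sign in 76 after 1 day, in 66 after 2 days and in 60 between 2 days and 1 day.

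What the unique reads of a member consist of depended on how few there were. In the 6 members at 90% or more, a median of 0.427% of unique reads lay in introns. In the 44 members between 10% and 90% that had at least 100 unique gene and exon reads in every library it was 2.97%, and in the 17 such members under 10% it was 18.1%, with a highest value of 67.2%. In Rps27 all unique reads were intronic (100%), in Rps13 98.6% and in Rpl23a 94.5%. For the 17 members under 10%, the median fold between 2 days and 1 day was -0.04 on total reads, -0.16 on unique gene reads and -0.14 on unique exon reads. Of the 14 members past 1.2-fold lower on unique reads in that comparison, 7 were also past it on unique exon reads (Rpl10, Rpl10a, Rpl23a, Rpl28, Rpl5, Rpl9 and Rps27a). The share of all genes on unique exon reads was not counted.

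**Figure D3:**
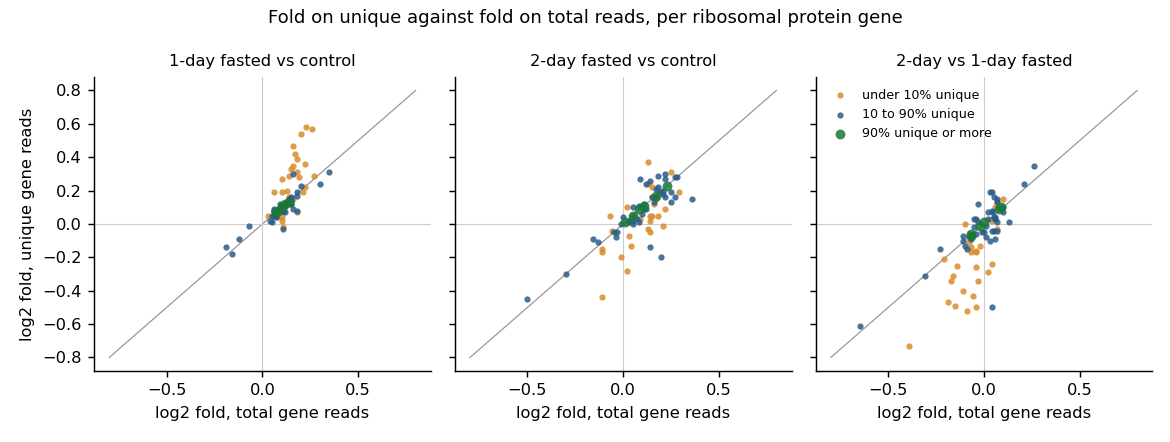
Log2 fold on unique gene reads (vertical axis) against log2 fold on total gene reads (horizontal axis) for the 78 ribosomal protein genes with at least 100 unique reads in every library, in the 3 comparisons, coloured by the share of unique reads, with the line of equal folds. The 6 genes at 90% or more lie on the line, and the genes under 10% depart from it most, mainly downwards between 2 days and 1 day.

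The stalk proteins differed in size. Rplp0 had 3926.1 and 3923.0 CPM after 1 day, 4188.7 and 4180.6 CPM after 2 days, and 3454.3 and 3476.3 CPM in control, at log2 folds of 0.18 and 0.27 against control. Its groups did not overlap, and on unique reads the folds were 0.19 and 0.28. The stalk tips were closer to control. Rplp1 had 1702.4 and 1715.9 CPM after 1 day, 1719.6 and 1734.4 CPM after 2 days, and 1624.6 and 1649.8 CPM in control, at folds of 0.06 and 0.08. Rplp2 was at folds of 0.11 and 0.15.

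Rpl5, Rpl11 and Rpl23 are known, beside their place in the 60S subunit, to bind MDM2 when not assembled and so to bear on p53, and Rpl26 is known to act on p53 translation. Rpl11 had 918.7 and 903.6 CPM after 1 day, 883.3 and 850.4 CPM after 2 days, and 751.2 and 808.9 CPM in control, at log2 folds of 0.22 and 0.15, with both fasted groups above control. Rpl5 had 1511.0 and 1388.9 CPM after 1 day, 1354.9 and 1239.1 CPM after 2 days, and 1323.8 and 1381.4 CPM in control. For Rpl5 the runs of the 2-day and control cells overlapped, and only the 1-day cells stood above control, by a log2 fold of 0.10. The second 1-day run stood only just above the second control run, and 1.65% of Rpl5 reads were unique. Rpl23, with 98.1% unique reads, was at 0.12 after 1 day and 0.05 after 2 days. Rpl26 was at 0.05 and -0.00.

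Rps6, the substrate of the kinases downstream of mTORC1, had 1229.8 and 1262.2 CPM after 1 day, 1238.8 and 1129.1 CPM after 2 days, and 1044.9 and 1122.2 CPM in control. Both fasted groups were above control without overlap, at log2 folds of 0.20 and 0.13, but the second run after 2 days stood only just above the second control run, and 0.55% of its reads were unique. Rpsa, the 40S protein known also as the laminin receptor, was among the least different members, with 3175.2 and 3154.6 CPM after 1 day, 2981.1 and 2940.6 CPM after 2 days, and 3123.3 and 3077.2 CPM in control. It was slightly above control after 1 day (0.03) and slightly below after 2 days (-0.07), with no overlap in either case.

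The paralogs and their parent genes differed in direction. Rpl22l1, a paralog of Rpl22 that can replace it in the ribosome, was the lowest member with over 100 reads per group in both comparisons with control. It had 107.9 and 106.9 CPM after 1 day, 86.9 and 86.4 CPM after 2 days, and 122.1 and 123.1 CPM in control. The 3 groups were fully separate, at log2 folds of -0.19 and -0.50 against control and -0.31 between 2 days and 1 day. On unique reads, which were 47.9% of its total, the folds were -0.14, -0.45 and -0.31. Rpl22, an RNA-binding 60S protein needed for normal lymphocyte development, had 520.6 and 516.1 CPM after 1 day, 524.4 and 518.0 CPM after 2 days, and 485.5 and 482.5 CPM in control. Both fasted groups lay above control, at folds of 0.10 and 0.11. The level of Rpl22l1 per length was 167.6 and 168.4 RPKM after 2 days, close to the 170.0 and 169.6 RPKM of Rpl22, while in control it was 232.8 and 234.6 RPKM against 155.4 and 154.4 RPKM.

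Rps27l, a paralog of Rps27 known as a p53 target, had 118.4 and 121.6 CPM after 1 day, 123.1 and 123.3 CPM after 2 days, and 134.6 and 134.4 CPM in control, with both fasted groups below control at log2 folds of -0.16 and -0.13. Rps27 itself, a zinc-finger protein of the 40S subunit, had the highest fold of any member with over 100 reads: 163.4 and 166.3 CPM after 1 day, 169.0 and 143.7 CPM after 2 days, and 117.8 and 93.7 CPM in control. The fasted groups were above control without overlap at folds of 0.64 and 0.56, yet the runs of control and of 2-day cells also differed from each other by more than in most members. On unique reads, all intronic, its folds were 0.55 and 0.03. Leaving out the first control run puts both folds of Rps27 past 1.5-fold in each remaining pair.

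Rpl7l1, a paralog of Rpl7, had 95.0 and 93.6 CPM after 1 day, 110.1 and 116.2 CPM after 2 days, and 102.3 and 103.2 CPM in control. It was below control after 1 day (-0.12) and above it after 2 days (0.14), whereas Rpl7 was at 0.05 and -0.04. Of the paralogs that did not pass the filter, Rpl3l, a muscle form of Rpl3, had 0 to 16 reads, Rpl39l, a testis form of Rpl39, had 1 read in 1 library, and Rpl10l, the autosomal testis copy of Rpl10, had 0 reads in all 6. A count of 0 in a library of this depth allows up to 3 reads.

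**Figure D4:**
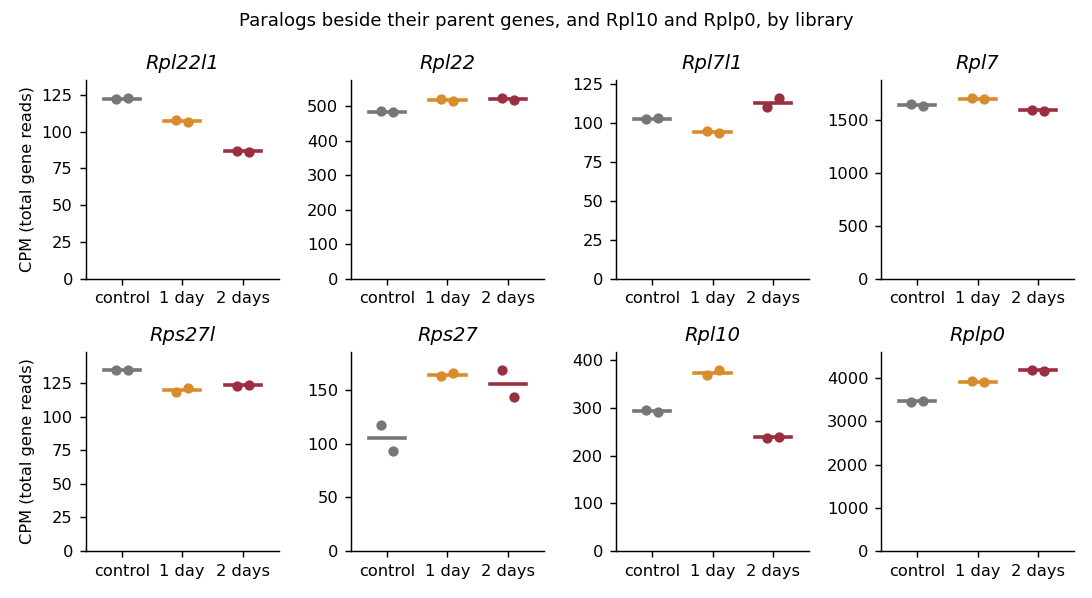
CPM from total gene reads in each library (points) and the mean of the 2 runs (line) in control, 1-day and 2-day fasted cells for 3 paralogs, each left of its parent gene, and for Rpl10 and Rplp0, with each axis starting at 0. Rpl22l1 steps down over the 3 groups while Rpl22 does not, Rps27l is lower and Rps27 higher in fasted cells, and Rpl10 is highest at 1 day and lowest at 2 days.

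Rpl10, the X-linked 60S protein that joins the subunit last, had the largest difference between 2 days and 1 day of the 79 members with at least 100 reads in every library. It had 369.5 and 379.5 CPM after 1 day, 236.5 and 240.0 CPM after 2 days, and 296.4 and 291.2 CPM in control. The 3 groups were fully separate, at log2 folds of 0.35 and -0.30 against control and -0.65 between 2 days and 1 day. With 14.0% of its reads unique, the unique folds were 0.31, -0.30 and -0.61, and junction reads gave 0.35 and -0.27 against control. Rpl23a, a 60S protein at the exit tunnel, showed the same order: 623.9 and 579.9 CPM after 1 day, 477.9 and 443.6 CPM after 2 days, and 512.9 and 484.8 CPM in control. Its folds were 0.27 and -0.11 against control and -0.39 between 2 days and 1 day.

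Of the other 60S members whose 2-day runs were both below both control runs, Rpl7a was at a log2 fold of -0.16, Rpl36a and Rpl3 were at -0.11 each and Rpl7 was at -0.04. After 1 day these 4 were at 0.07, 0.10, 0.06 and 0.05 against control. Rpl21 was higher in both fasted groups, with 125.4 and 133.7 CPM after 1 day, 131.9 and 137.9 CPM after 2 days, and 105.7 and 104.9 CPM in control, at folds of 0.30 and 0.36. Among 40S members, Rps12 was at 0.22 and 0.29, Rps21 at 0.07 and 0.28, and Rps19, a gene mutated in Diamond-Blackfan anaemia in people, at 0.14 and 0.27. Rps21 and Rps19 were also among the highest members between 2 days and 1 day, at 0.21 and 0.13, with Rpl13a and Rpl27, both at 0.10. Rps2 was at -0.07 and -0.03.

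Reads in introns, which unspliced RNA can give, are counted apart in the files. Intron counts were scaled by unique gene reads, so a difference between groups in the intron share of all genes enters these folds. The values over all genes are given beside them for this reason. On unique intron reads, 40 members had at least 100 in every library. They stood further above control after 1 day than the mRNA did: the median log2 fold was 0.39 (0.37 and 0.42 in the runs), against 0.12 over all 2413 genes with as many intron reads. Both 1-day runs were above both control runs in 38 of 40 members, 95% against a background of 54.7%, and 25 of 40, or 62.5%, were past 1.2-fold higher, against 23.1%. Only Rpl26 was lower, at -0.13. After 2 days the members' median was 0.06, against -0.12 over all genes, with 3 members past 1.2-fold higher and 4 lower (background 9.49% and 27.9%). Between 2 days and 1 day it was -0.31, close to the -0.27 of all genes, and 21 of 40 members, 52.5%, were past 1.2-fold lower, against 40.4%.

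Rpl34, a 60S protein, had the largest intron difference, with 21.8 and 22.2 unique intron CPM after 1 day, 17.7 and 16.1 CPM after 2 days, and 12.3 and 12.6 CPM in control. Its log2 intron folds were 0.82 and 0.44, where its gene folds were 0.10 and 0.16. Rpl22 introns were at 0.62 and 0.34, with gene folds of 0.10 and 0.11. Rplp0 and Rpl37 were among the members whose introns stayed above control at 2 days, at 0.35 and 0.40. Rpl23a, Rplp2 and Rpl7a introns were the lowest after 2 days, at -0.46, -0.40 and -0.38. Of the members' unique gene reads, 2.48% and 2.47% were intronic in control, 3.00% and 3.02% after 1 day and 2.35% and 2.32% after 2 days. Over all genes the shares were 7.54% and 7.49%, 8.17% and 8.14%, and 7.17% and 7.14%, so the same order of groups held outside the module. Many of these introns hold small nucleolar RNA genes, and which part of the intron the reads came from is not given in the counts.

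**Figure D5:**
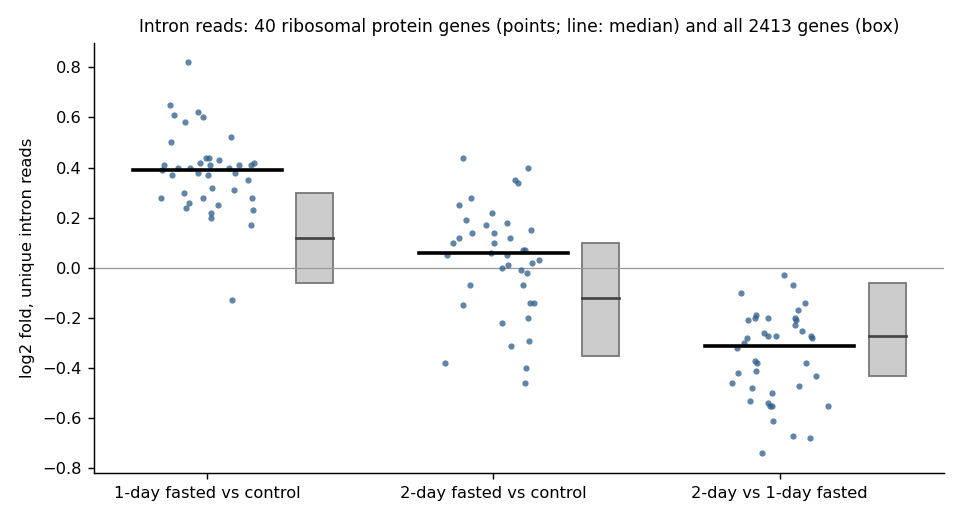
Log2 fold on unique intron reads for the 40 ribosomal protein genes with at least 100 such reads in every library (points, with a line at the median) and for all 2413 such genes (box spanning the quartiles, with its median) in the 3 comparisons. The median of the ribosomal protein genes is 0.39 after 1 day, 0.06 after 2 days and -0.31 between 2 days and 1 day, against 0.12, -0.12 and -0.27 over all genes.

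Ribosomal proteins whose names fall outside the rule include Fau (the 40S protein eS30) and Gnb2l1 (RACK1). Fau stood at log2 folds of 0.20 after 1 day and 0.24 after 2 days, and Gnb2l1 at 0.09 and 0.01. Another 25 genes with a TOP motif, mostly translation factors, had a median of -0.01 after 1 day and -0.10 after 2 days. All genes had 0.002 and 0.01, and genes at 100 CPM or more had -0.03 and -0.061. The 25 genes all stood above 100 CPM in every library. Of these, 9 of 25 had a positive fold after 1 day and 6 of 25 after 2 days. After 1 day 1 gene was past 1.2-fold higher and 0 lower, against 11.8% and 9.5% of all genes (4.83% and 4.83% at 100 CPM or more). After 2 days 1 was higher and 6 lower, against 20.7% and 20.0% (9.28% and 18.9% at 100 CPM or more). No test of the difference between these genes and the ribosomal protein genes was made. The gene higher in both was Vim, which encodes an intermediate filament, at 1.00 and 1.2. The elongation factor Eef1a1 was at 0.02 and -0.10, the initiation factor subunit Eif3f at 0.18 and 0.18, and the nucleolar chaperone Npm1 at -0.15 and -0.35.

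The counts in the next 4 gene lists stand beside the same shares of all genes past 1.2-fold: 11.8% higher and 9.5% lower after 1 day, 20.7% and 20.0% after 2 days, and 14.8% and 16.7% between 2 days and 1 day. The 6 analysed hosts of small nucleolar RNAs, whose spliced RNA is also of the TOP kind, had a median of 0.28 after 1 day with 3 past 1.2-fold higher, -0.06 after 2 days with 2 higher and 0 lower, and -0.40 between 2 days and 1 day with 4 past 1.2-fold lower and 1 higher. Gas5 had 317.5 and 320.4 CPM after 1 day, 233.7 and 232.4 CPM after 2 days, and 256.8 and 263.2 CPM in control, the same order of groups as Rpl10. The 18 genes of late ribosome assembly were at 0.03 and 0.10, with 0 past 1.2-fold after 1 day and 2 higher and 1 lower after 2 days. The 12 regulators of TOP translation were at -0.11 and -0.15, with 1 of 12 (Mtor) past 1.2-fold lower after 1 day and 3 of 12 (Tsc1, Tsc2 and Larp4) after 2 days, numbers close to the shares of all genes. Mtor was at -0.29 and 0.04, Tsc1 at -0.28 and -0.47, Tsc2 at -0.22 and -0.47 and Larp4 at -0.24 and -0.31. The 77 mitochondrial ribosomal proteins, which build a separate ribosome, were at -0.03 and 0.04, with 1 past 1.2-fold higher and 0 lower after 1 day and 4 higher and 1 lower after 2 days.

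Some member values are limited by how the genes were drawn in the files. Rpl13 had 7 to 72 reads per library, and its calls past 1.2-fold and 1.5-fold rest on these. Its position lies within the row Gm20388 on the same strand, which spans 4434882 bp and held 127252 to 312198 total gene reads per library. Rpl24 had 554.0, 606.2 and 625.9 CPM in the run 1 libraries of control, 1-day and 2-day cells, but 61.3, 58.6 and 52.1 CPM in run 2, whose table has a shorter gene region and an overlapping row with 8740 to 19201 reads. Its run 1 log2 folds were 0.13 and 0.18, and its run 2 folds -0.06 and -0.23. Rps13 had 772.7 and 574.0 CPM after 1 day, 746.2 and 523.2 CPM after 2 days, and 659.8 and 461.8 CPM in control. Its run 2 table lists a copy, Rps13-ps1, with 6338 to 11870 reads, and within each run its folds were 0.23 and 0.31 after 1 day, and 0.18 in both after 2 days.

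The low-count members gave no steady direction. Rps4y2 had 4 and 16 reads after 1 day, 0 reads in both 2-day runs, and 14 and 13 reads in control, all multiply mapped, and no fold is given. Rps12l2 had 17 and 22 reads after 1 day, 69 and 28 after 2 days, and 32 and 25 in control. Rps3a2 had 15 and 46 reads after 1 day, 47 and 42 after 2 days, and 19 and 12 in control. Rps3a3 had 4 to 11 reads and Rps12l1 12 to 19 in any library, with overlapping groups.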

How the data were processed

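RNA was sequenced as 51-base single-end reads, per the labels' protocols. The submitters' processing notes name TopHat2 and mm10. For the program that counted reads, its annotation and its strand setting, nothing is stated in these sources. The authors deposited 1 table per library with read counts per gene (total and unique; whole gene, exons, exon junctions, introns) and RPKM, per the file headers. Genes listed numbered 38355 in run 1 and 38924 in run 2, of which 37732 were joined by position or name. Rps12l1 and Rps12l2 were joined by position.

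Total gene counts were scaled to CPM with TMM factors (edgeR 4.0.16, R 4.3.3) over the genes that filterByExpr (minimum count 10) retained. A group's level is the mean of its 2 runs, and folds compare these means on the log2 scale after adding 0.1 CPM, which understates low genes. A gene is past 1.2-fold or 1.5-fold where the mean and each run (same number compared) are. With a library of the groups compared left out, every remaining pair of libraries must be. Unique gene, exon and junction counts were treated alike, each with its own factors and filter. Unique intron counts had no factors of their own. They were scaled by the library sizes and TMM factors of unique gene reads, and genes were kept by the minimum of intron reads stated above. No test across replicates was made. On unique gene reads the squared difference between runs of a group, over its sampling variance, had a median of 1.10 to 1.14 over all genes, against 7.02 to 23.2 between groups. Since the runs of a group differed by little more than sampling noise, they count as 1 sample here. For members the medians were 1.99 to 2.56 (unique reads) and 4.09 to 6.57 (total reads).

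Named members are the 5 highest and 5 lowest by RPKM, by fold in each comparison (100 reads or more per group) and by unique share, all past 1.5-fold, the paralogs, the stalk, Rpsa, Rps6 and the MDM2-binding members; others were named after their values were seen. Members and lists were chosen with earlier results of these data known. Sequences are from RefSeq promoters (GRCm38.p6). Alternatives were other read classes, scalings, pseudocounts and filters, and leaving out each library. The values of a few single genes are not reported here.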

Additional observations from a re-analysis of the deposited data

Results flagged for a closer look

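After 1 day and after 2 days of fasting, 9 members lay on opposite sides of control, with every run of a fasted group on the same side of both control runs. The share of all genes that did the same was not counted, so this number is not a result about the module. Whether the 2 differences from control differ from each other was not tested, and both use the same control runs. Rpl10 was at a log2 fold of 0.35 after 1 day and -0.30 after 2 days, and Rpl23a at 0.27 and -0.11. Smaller differences of the same order were those of Rpl36a (0.10 and -0.11), Rpl3 (0.06 and -0.11), Rpl7 (0.05 and -0.04), Rps20 (0.06 and -0.05) and Rpsa (0.03 and -0.07). The opposite order was seen in Rpl7l1, at -0.12 after 1 day and 0.14 after 2 days. Rps12l2 was at -0.76 and 0.70 on fewer than 100 reads per library.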

How the results depend on the processing

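The median log2 fold of the members stayed above 0 under all 21 alternatives tried for 1 day against control (0.096 to 0.152) and for 2 days against control (0.076 to 0.173), and was above 0 in 10 of 21 for 2 days against 1 day (-0.047 to 0.039). In each comparison the 21 include leaving out either library of the group not compared, which could not change the value. For 1 day it was 0.117 on unique gene reads (also with 100 or more in every library), 0.122 on total exon, 0.096 on unique exon, 0.152 on total junction and 0.122 on unique junction reads, 0.102 with DESeq2 size factors, 0.122 with no factor, 0.13 on RPKM, 0.123 with no filter and 0.107 for members of 90% unique reads. For 2 days it was 0.086 on unique gene reads (0.087 with 100 or more), 0.076 on unique exon, 0.094 on unique junction reads, 0.173 with no factor, 0.153 on RPKM and 0.097 at 90% unique. For 2 days against 1 day it was 0.039 with no factor and below 0 on unique gene (-0.047, or -0.046 with 100 or more), unique exon (-0.024), total junction (-0.024) and unique junction (-0.032) reads; the cause was not tested. For the counts that follow, shares of all genes were counted on unique gene reads, given above, and not under the other alternatives. Members past 1.2-fold after 1 day, 2 as reported, were 12 on unique gene reads (11 with 100 or more), 5 on unique exon, 6 on total junction, 4 on unique junction reads and 0 at 90% unique. Past 1.5-fold there were 3 on unique junction reads. After 2 days, 0 were past 1.2-fold at 90% unique. Past 1.5-fold there were 2 with no factor or RPKM, and 0 on unique gene reads (with or without the minimum of 100), at 90% unique or with a pseudocount of 1 CPM. Between 2 days and 1 day, 15 were past 1.2-fold on unique gene reads (14 with 100 or more) and 0 at 90% unique. Past 1.5-fold there were 2 on unique gene reads (with or without the minimum) and on total junction reads, 1 on unique exon and on unique junction reads, 3 with a pseudocount of 1 CPM and 0 at 90% unique. The summed shares were 3.61%, 3.68% and 3.32% of unique gene reads at 1 day, 2 days and control, 9.16%, 9.22% and 8.34% of total exon reads, and 3.82%, 3.87% and 3.5% of unique exon reads. Leaving out 1 library of the groups compared gave medians of 0.116 to 0.128, 0.1 to 0.132 and -0.011 to 0.017 for the 3 comparisons. Members past 1.2-fold were then 4 to 6, 10 to 12 and 7 to 8, and past 1.5-fold 1 to 2, 2 to 5 and 4 to 5. The shares were 8.17% to 8.2%, 8.27% to 8.3% and 7.48% to 7.49% at 1 day, 2 days and control. With the run number as a replicate block the medians were 0.113, 0.127 and -0.002, and the counts past 1.2-fold were 2, 11 and 7. The alternatives on junction reads, on members of 90% unique reads or 100 unique reads, and without Rpl24, Rps13 and Rpl13 were chosen after seeing the data. Depth limits the 6 kept members with fewer than 100 reads in every library.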
